A study of Mus musculus with 7 samples.

Results

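The sections described here are the collagen-rich and collagen-poor cryosections of the 3 DMD muscles, 94 of the 192 DMD sections that were deep enough to use. The whole series holds 422 such sections. Each was scored by the summed depth-scaled counts (CPM, the count over the section's total, times a fixed factor) of Col1a1, Col1a2, Col3a1 and Postn, the genes of the main fibrillar collagens and of the matrix protein periostin. Within each muscle the 25% of sections with the highest score were called rich (16, 16 and 15 sections) and the 25% with the lowest score poor (16, 16 and 15). The sections were thus chosen by measured levels of these 4 genes, whose values describe the choice and are no result.

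Single cryosections of the mouse tibialis anterior, a large muscle at the front of the shin, were sequenced one by one. The labels give 3 muscles as DMD, 2 as Ctr and 2 as WT. The series title names Duchenne muscular dystrophy, usually shortened to DMD, and the labels state no genotype, strain, treatment, age or sex for any group. The column headers use mdx in the DMD tables, hDMD in Ctr and pax7 in WT without explanation. Whether each muscle came from its own animal is not stated either, and every p-value here is about the spread among these muscles, which may be technical.

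Fibrillar collagen is laid down by fibroblast-like cells of the muscle interstitium, the fibro-adipogenic progenitors, and by the tenocytes of tendon and aponeurosis. Muscle that lacks dystrophin goes through repeated rounds of fibre death and repair. Macrophages clear the dead fibres, satellite cells divide and fuse into new fibres, and matrix accumulates between the fibres as fibrosis. Collagen transcripts can therefore come from repair sites, scar or tendon.

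Scores differed in range between the muscles. In DMD-1 they ran from 599 to 4822 CPM with a median of 1282, in DMD-2 from 1012 to 2246 with a median of 1455, and in DMD-3 from 218 to 844 with a median of 459. Pooled over their sections, rich sums had 3.38 times the score of poor sums in DMD-1, 1.55 times in DMD-2 and 1.75 times in DMD-3. The thresholds cut through a continuous range. The highest poor section and its next neighbour scored 1000 and 1031 CPM in DMD-1, 1268 and 1276 in DMD-2, and 397 and 402 in DMD-3. The lowest rich section and its next neighbour scored 2045 and 1861, 1601 and 1592, and 542 and 532 CPM. The poor sections of DMD-2 (at least 1012 CPM) thus scored above every rich section of DMD-3 (at most 844 CPM), and rich and poor are ranks within a muscle.

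Rich sections lay in different places along the 3 muscles. With kept sections ordered by barcode number and split into 3 equal parts, all 16 rich sections of DMD-1 were in the last part, and 14 of its 16 poor sections were in the first. In DMD-2 the rich sections were at both ends, 8 in the first part and 8 in the last, with 13 of 16 poor sections in the middle. In DMD-3 this was the other way round, with 11 of 15 rich sections in the middle part and none of the poor. Scores of neighbouring kept sections went together with a Pearson r of 0.93 over 64 pairs in DMD-1, 0.54 over 66 pairs in DMD-2 and 0.36 over 59 pairs in DMD-3. The labels do not state that barcode numbers follow the order of cutting.

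**Figure D1:**
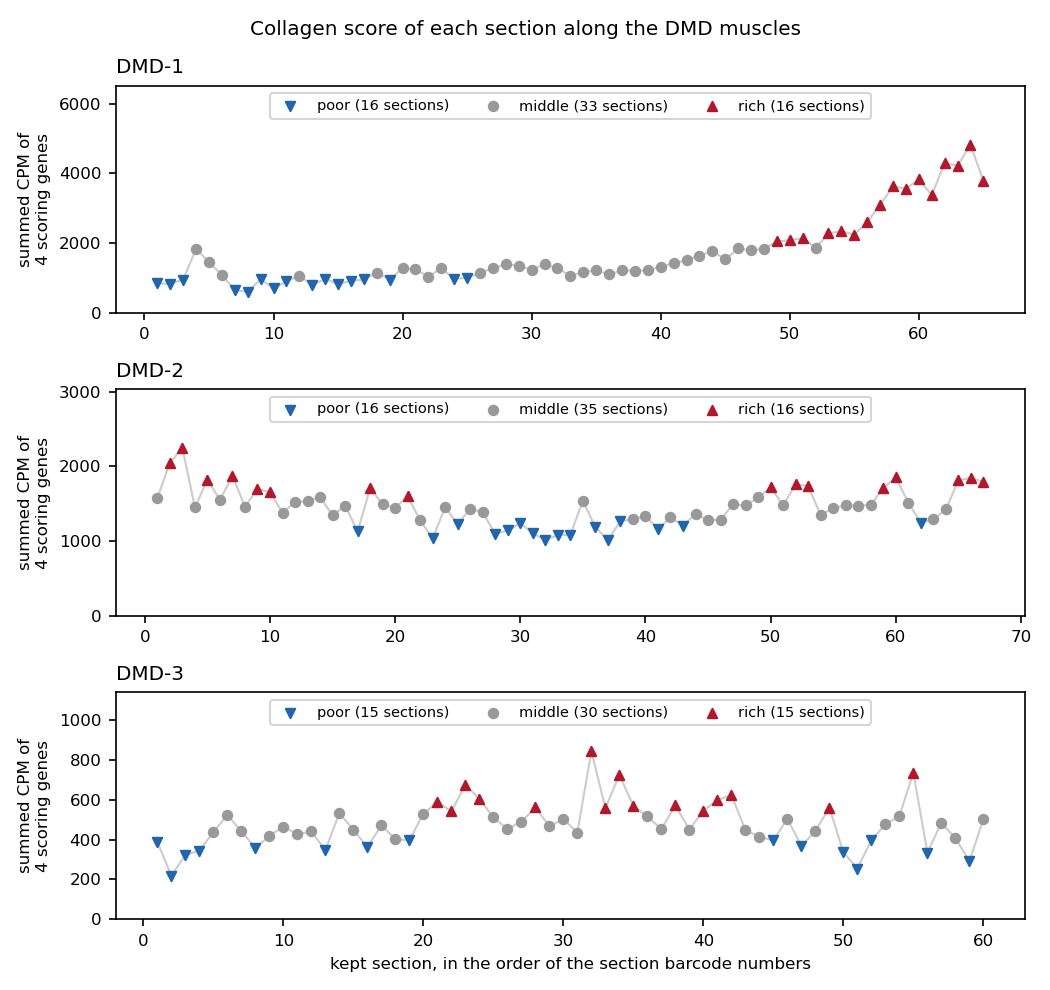
Summed CPM of Col1a1, Col1a2, Col3a1 and Postn (y axis, from 0) of each kept section in barcode order (x axis) in the 3 DMD muscles; red triangles are rich, blue triangles poor and grey circles the sections between. The rich sections of DMD-1 form 1 block at the end of the order, those of DMD-2 lie at both ends, and most of those of DMD-3 lie in the middle.

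Depth and mitochondrial content differed between rich and poor sections. The median total per section was 499328 counts in rich against 624885 in poor sections of DMD-1 and 118881 against 184655 in DMD-2. It went the other way in DMD-3, with 371129 in rich and 276090 in poor sections. With every section thinned to 33717 counts, 37 of the 48 genes followed across settings could be tested and 4 of them changed sign. Here Myog (log2 fold 1.73, edgeR adjusted p = 0.00895) and Gpnmb (1.57, adjusted p = 0.000624) rose and Hba-a1 fell by 1.36 (adjusted p = 0.000624), whereas at full depth none of these 3 passed. The median share of mitochondrially encoded genes per section was 23.7% in rich and 32.6% in poor sections of DMD-1. It was 24.3% and 27.5% in DMD-2 and 33.4% and 36.1% in DMD-3. The part of this share in the results was not tested. Fast-fibre genes summed to between 167924 and 211699 CPM in all 6 sums, so defining genes of the labelled tissue were high throughout. The 9 genes of bone, cartilage and skin summed to 6.94 unscaled CPM in the poor sections of DMD-1, where the bone gene Ibsp had 50 counts against 0 in the rich, and to between 0.332 and 1.34 CPM in the other sums. Of these genes, Acan, Col10a1, Krt5 and Krt14 were at 0 in all 6 sums.

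The rich and poor sums of the 3 DMD muscles were compared gene by gene, with the muscle as block. Outside the 4 scoring genes, 3 of 10374 genes passed at an adjusted p below 0.05 (0.0289%), all higher in rich sections: Irf7, Itgb7 and St8sia2. The same edgeR quasi-likelihood test gave 1279 genes at an unadjusted p below 0.05 (12.3%), 780 higher (7.52%) and 499 lower (4.81%), and DESeq2 called 0 genes with 345 at an unadjusted p below 0.05. The sign of the rich-to-poor ratio was the same in all 3 muscles for 1590 genes that were higher (15.3%) and 1767 that were lower (17%). All values beside folds are CPM scaled by TMM, which sets the typical gene to no difference. With scaling by library size alone, the median log2 difference of all genes was 0.32 in place of 0.0028, a shift of 0.31, and 4243 genes were higher in all 3 muscles (40.9%) and 296 lower (2.85%).

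Irf7, a transcription factor of the interferon response (GRCm38 chr7:141262706-141266481), stood at 16.3 CPM in rich and 2.10 CPM in poor sections of DMD-1, 1.58 and 1.06 in DMD-2, and 2.37 and 1.17 in DMD-3. The counts behind these levels were 188 and 20 in DMD-1, 4 and 3 in DMD-2, and 12 and 4 in DMD-3. In DMD-2 and DMD-3 no sum thus held more than 12 reads of Irf7. Irf7 rose by 2.38 ± 0.40 on the log2 scale (edgeR adjusted p = 0.0302), and single sections had reads in 16 of 16 rich and 9 of 16 poor sections of DMD-1. Itgb7, an integrin subunit of leukocytes (chr15:102215995-102231944), had 117 and 21 counts in DMD-1, 6 and 2 in DMD-2 and 10 and 1 in DMD-3, and rose by 2.18 ± 0.37 (adjusted p = 0.0302). St8sia2, which builds polysialic acid on the cell adhesion molecule NCAM (chr7:73939119-74013690), had 184 and 36, 9 and 3, and 6 and 2 counts, and rose by 1.93 ± 0.33 (adjusted p = 0.0302). Each averaged below 5 CPM, and without DMD-1 all 3 were below the filter on low counts. With library-size scaling their adjusted p was 0.128 (Irf7), 0.0949 (Itgb7) and 0.103 (St8sia2), and with DESeq2 it was 1 for each. Without DMD-2 the edgeR adjusted p fell to between 1.79e-10 and 1.2e-06. That fit held only 2 muscles, and in DMD-3 no sum had more than 12 reads of any of the 3 genes.

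The ratios of single genes were only partly shared between the muscles. Over 3046 genes with a mean of at least 20 CPM, the log2 ratios of rich over poor had a Pearson r of 0.48 between DMD-1 and DMD-3, 0.13 between DMD-2 and DMD-3 and 0.087 between DMD-1 and DMD-2. These are correlations across genes, which are not independent replicates. Signs were the same for 66.9%, 57.7% and 51.7% of the genes.

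**Figure D2:**
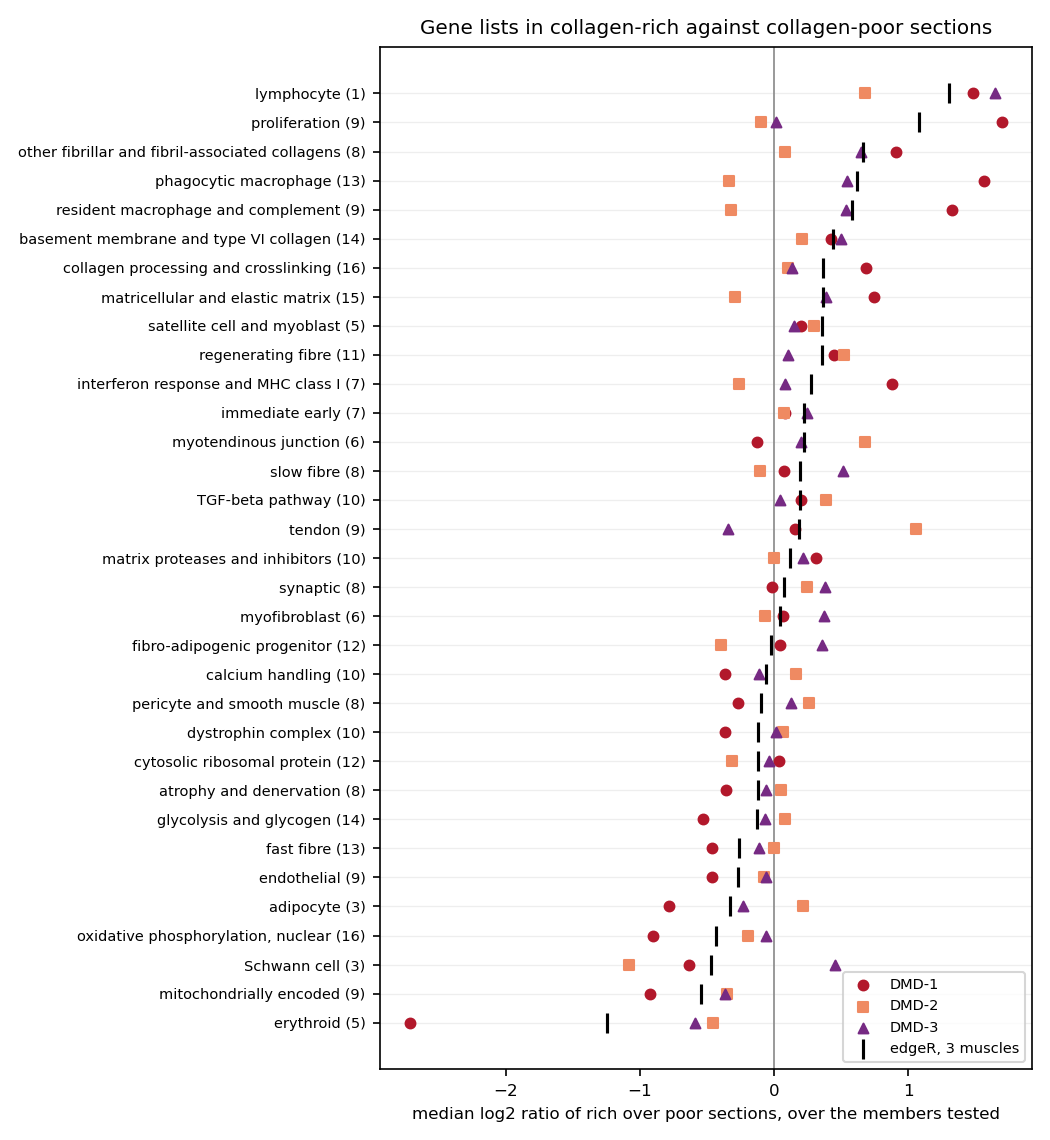
Median log2 ratio of rich over poor sections (x axis) over the tested members of each gene list (rows, number tested in brackets); circles, squares and triangles are DMD-1, DMD-2 and DMD-3, and black bars the median of the edgeR log2 folds. Erythroid and mitochondrially encoded genes are below 0 in all 3 muscles, while both macrophage lists are at 1.33 to 1.56 in DMD-1 and below 0 in DMD-2.

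Collagens outside the score were higher in rich sections of most muscles, and none passed the test. Of 8 fibrillar and fibril-associated collagens, 3 were higher in all 3 muscles (6 with library-size scaling), and 4 had an unadjusted p below 0.05. Their median log2 fold was 0.67, against 0.0028 over all genes. Col5a1, which encodes a chain of the type V collagen that starts fibrils (chr2:27886425-28039514), was at 118 and 51.6 CPM in rich and poor sections of DMD-1, 85.1 and 71.6 in DMD-2 and 37.4 and 19.6 in DMD-3. Every rich section of DMD-1 was above every poor one for Col5a1, 10 of 15 were in DMD-3 and 1 of 16 in DMD-2. The log2 fold of Col5a1 was 0.81 ± 0.20 (edgeR adjusted p = 0.140). Col5a3 and Col16a1 were the other 2 that were higher throughout, and Col11a1, also made in cartilage and tendon, was at 10.2 against 1.06 CPM in DMD-2 but 3.46 against 3.57 CPM in DMD-1. A section holds many cells, so more cells of a type and more RNA per cell cannot be told apart.

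Genes of the basement membrane and of type VI collagen, the sheath around fibres, had the largest share of members higher in all 3 muscles among the lists with more than 1 tested member. Of 14 members, 11 were higher in rich sections of all 3 muscles (13 with library-size scaling), beside the 15.3% (40.9%) of all genes. The medians were 0.42 in DMD-1, 0.21 in DMD-2 and 0.50 in DMD-3. Col6a2 (chr10:76595762-76623630) was at 331 and 173 CPM in DMD-1, 223 and 205 in DMD-2 and 162 and 83.2 in DMD-3, with a log2 fold of 0.68 ± 0.20 (adjusted p = 0.198). Hspg2, which encodes the heparan sulfate proteoglycan perlecan, was at 20.1 and 11.7, 27.6 and 15.6, and 14.6 and 10.5 CPM. Both Col4a1 and Col4a2, the chains of the basement membrane network itself, had smaller ratios, between 0.08 and 0.40 on the log2 scale in the 3 muscles. Lama2, the laminin chain of the muscle fibre, had ratios of -0.12, 0.17 and -0.15.

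Collagen-modifying enzymes had 6 of 16 tested members higher in all 3 muscles (10 with library-size scaling) and a median log2 fold of 0.37. Bmp1, the protease that removes the C-propeptide of fibrillar procollagen, was at 9.34 and 4.93 CPM in DMD-1, 8.28 and 4.96 in DMD-2 and 3.96 and 1.17 in DMD-3 (log2 fold 0.99 ± 0.28, adjusted p = 0.191). Loxl2 and Plod2, which act in collagen crosslinking, were also higher throughout. The collagen chaperone Serpinh1 was at 224 and 125 CPM in DMD-1, 122 and 125 in DMD-2 and 108 and 92.0 in DMD-3. Rich and poor sections of DMD-2 were thus alike in Serpinh1, and its log2 fold was 0.36 ± 0.19 (adjusted p = 0.464).

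Among matricellular and elastic matrix genes, 6 of 15 were higher in all 3 muscles under either scaling, with medians of 0.75 in DMD-1, -0.29 in DMD-2 and 0.39 in DMD-3. Sparc, a collagen-binding protein that helps fibrils assemble (chr11:55394500-55423183), was at 520 and 309 CPM in DMD-1, 896 and 683 in DMD-2 and 307 and 272 in DMD-3. In DMD-2, 13 of 16 rich sections were above every poor section in unscaled Sparc CPM, against 1 of 16 for Col5a1. Its log2 fold was 0.44 ± 0.20 (adjusted p = 0.370). Fn1, which encodes the provisional-matrix protein fibronectin, was at 52.3 and 28.0, 44.9 and 59.5, and 28.3 and 15.5 CPM, so DMD-2 went the other way. Tnc and Ccn4 were higher throughout at lower levels (Ccn4 15.1 and 6.40, 11.0 and 6.38, and 2.97 and 1.76 CPM).

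No gene of the protease and TGF-beta lists passed. Matrix proteases and their inhibitors had 2 of 10 members higher in all 3 muscles (6 with library-size scaling) and a median of 0.12. Adamts5, the aggrecanase of highest level among them, was at 63.9 and 81.3, 170 and 160, and 145 and 147 CPM. Of 10 genes of TGF-beta signalling, the main profibrotic pathway, 3 were higher in all 3 muscles (6 with library-size scaling) and none was lower in all 3. Of all genes, 15.3% (40.9%) were higher in all 3. Tgfb1, the ligand, was at 8.22 and 3.15 CPM in DMD-1, 2.36 and 1.42 in DMD-2 and 0.594 and 0.586 in DMD-3. Both levels of Tgfb1 in DMD-3 were low and nearly equal. Smad3, a transcription factor of the pathway, was at 132 and 169, 80.4 and 70.1, and 83.7 and 96.6 CPM (log2 fold -0.14 ± 0.18, adjusted p = 0.808).

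Markers of the fibroblast-like cells had no common direction. The 12 fibro-adipogenic progenitor genes had a median log2 fold of -0.024, with 7 higher in DMD-1, 1 in DMD-2 and 10 in DMD-3. Dcn, which encodes the collagen-binding proteoglycan decorin and is abundant in these cells (chr10:97479609-97518143), was at 226 and 286 CPM in DMD-1, 537 and 768 in DMD-2 and 306 and 322 in DMD-3. It was lower in rich sections of all 3 muscles on the TMM scale, with a log2 fold of -0.31 ± 0.19 (adjusted p = 0.537). In unscaled CPM per section, 7 of 16 rich sections of DMD-2 lay below every poor section, whereas 13 of 16 in DMD-1 and 11 of 15 in DMD-3 lay above the median of the poor. The direction of Dcn in DMD-1 and DMD-3 thus turns with the scaling: unscaled rich and poor sums gave 315 and 282 CPM in DMD-1 and 257 and 236 CPM in DMD-3. Pdgfra, the receptor that defines the cells, was at 8.39 and 5.98, 8.67 and 6.73, and 6.13 and 4.69 CPM. Gsn, the most abundant member, was at 593 and 573, 835 and 863, and 884 and 546 CPM.

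Myofibroblast genes were mixed in the same way, with a median of 0.046 over 6 tested genes. Acta2, smooth muscle actin, was at 226 and 346 CPM in DMD-1, 407 and 447 in DMD-2 and 385 and 266 in DMD-3. Pdgfrb, a receptor of perivascular and fibroblast-like cells, was higher in all 3, at 8.22 and 4.41, 9.06 and 3.90, and 5.54 and 4.10 CPM (log2 fold 0.85 ± 0.27, adjusted p = 0.235). No member passed.

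Among the 3 DMD muscles, tendon genes were most uniformly higher in rich sections of DMD-2. All 9 tested members were higher in rich sections of DMD-2, against 5 in DMD-1 and 3 in DMD-3, and the medians were 1.06, 0.15 and -0.34. Fmod, which encodes the tendon proteoglycan fibromodulin (chr1:134037254-134048277), was at 22.5 and 2.83 CPM in DMD-2, 10.6 and 9.23 in DMD-1 and 9.30 and 8.49 in DMD-3. In DMD-2, 13 of 16 rich sections were above every poor section for Fmod, against 0 of 16 in DMD-1 and 3 of 15 in DMD-3. Its log2 fold over the 3 muscles was 0.79 ± 0.33 (adjusted p = 0.344). Genes of the myotendinous junction, where fibres anchor in tendon, went the same way: 6 of 6 tested were higher in DMD-2, 3 in DMD-1 and 4 in DMD-3. Col22a1, a collagen of that junction, was at 5.52 and 0.708 CPM in DMD-2 and at 3.37 and 4.61 CPM in DMD-1. Of the rich sections, 10 in DMD-1, 8 in DMD-2 and 2 in DMD-3 were also among the 25% with the highest tendon score.

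Macrophage genes had higher levels in rich sections of DMD-1 and DMD-3 but not of DMD-2; this division between muscles was not tested. All 13 phagocytic macrophage genes were higher in DMD-1 and 12 in DMD-3, but 2 in DMD-2, with medians of 1.56, 0.54 and -0.33. Gpnmb, a glycoprotein of lipid-laden macrophages (chr6:49036546-49070929), was at 209 and 50.1 CPM in DMD-1, 57.5 and 54.2 in DMD-2 and 10.1 and 5.86 in DMD-3. All 16 rich sections of DMD-1 exceeded all poor ones for Gpnmb, and 4 did in each of the other muscles. Over the 3 muscles Gpnmb had a log2 fold of 1.10 ± 0.28 (adjusted p = 0.166), and without DMD-1 it was 0.28 ± 0.22 (adjusted p = 0.890). Lyz2, which encodes lysozyme, was at 487 and 216, 291 and 446, and 94.0 and 61.5 CPM, and in DMD-2 only 3 of 16 rich sections were above the median of the poor. Spp1, the secreted phosphoprotein osteopontin, was at 87.1 and 23.3, 12.6 and 17.0, and 2.77 and 0.879 CPM.

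Resident macrophage and complement genes followed the same division, with medians of 1.33, -0.32 and 0.53 over 9 tested members. C1qb was at 355 and 141 CPM in DMD-1, 282 and 315 in DMD-2 and 56.6 and 39.0 in DMD-3 (log2 fold 0.58 ± 0.23, adjusted p = 0.329). Of the rich sections, 14 of 16 in DMD-1, 5 of 16 in DMD-2 and 10 of 15 in DMD-3 were also among the 25% with the highest phagocytic macrophage score. Poor sections among them numbered 0, 7 and 0. Ptprc, the pan-leukocyte phosphatase CD45, was higher in all 3 muscles at 25.3 and 8.71, 16.2 and 9.92, and 1.98 and 0.293 CPM (log2 fold 1.30 ± 0.27, adjusted p = 0.0693). Its levels in DMD-3 rest on 10 and 1 counts. Other lymphocyte genes and all 7 granulocyte genes were too low to test. The 7 granulocyte genes summed to between 0.2 and 3.7 CPM without scaling in the 6 sums, and Cd8a was at 0 in all of them.

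Of 9 proliferation genes, 9 were higher in rich sections of DMD-1, 3 of DMD-2 and 5 of DMD-3, with medians of 1.70, -0.10 and 0.013, and none passed. Mki67, which marks cycling cells (chr7:135689784-135716361), had 135 and 29 counts in rich and poor sections of DMD-1, 9 and 6 in DMD-2 and 1 and 0 in DMD-3. Its log2 fold was 1.69 ± 0.37 (adjusted p = 0.0945), and DMD-3 held 1 read of it in all. The interferon list had 1 of 7 tested members called, beside 0.0289% of all genes. This was Irf7, with most of its reads from DMD-1, and the list's medians were 0.88, -0.26 and 0.080.

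Myog, Ncam1 and Chrnd, which are expressed in new or denervated muscle fibres, did not pass and were singled out after their values were seen. Myog, the transcription factor that starts myoblast differentiation (chr1:134289989-134292548), was at 54.7 and 28.8 CPM in DMD-1, 25.2 and 11.0 in DMD-2 and 6.13 and 2.34 in DMD-3. Of the rich sections, 16 of 16, 14 of 16 and 11 of 15 exceeded the median of the poor for Myog. The log2 fold of Myog was 1.07 ± 0.21 (adjusted p = 0.0626). Ncam1, the adhesion molecule of newly formed and denervated fibres that St8sia2 modifies, was at 17.3 and 7.24, 12.2 and 4.96, and 3.56 and 2.05 CPM (log2 fold 1.19 ± 0.25, adjusted p = 0.0819). Chrnd, a subunit of the acetylcholine receptor, was at 9.95 and 3.67, 4.73 and 1.42, and 3.56 and 0.586 CPM (log2 fold 1.63 ± 0.32, adjusted p = 0.0626). The synaptic list that holds Chrnd did not follow it as a whole. Of its 8 tested members, 2 were higher in all 3 muscles (5 with library-size scaling), and the medians were -0.017, 0.24 and 0.38.

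The regenerating-fibre list as a whole was less uniform: 5 of 11 tested members were higher in all 3 muscles (7 with library-size scaling), 1 was lower, and the medians were 0.45, 0.52 and 0.11. Mymk, the membrane protein of myoblast fusion, was at 30.3 and 17.8, 38.6 and 20.5, and 8.31 and 6.15 CPM, and Tnnt2, the embryonic troponin T, at 79.4 and 48.8, 112 and 91.0, and 45.5 and 27.8 CPM. H19, an imprinted RNA of growing tissue and the most abundant member, was lower at 721 and 1099, 2586 and 3076, and 802 and 866 CPM (log2 fold -0.32 ± 0.21, adjusted p = 0.568). Myh3, the embryonic myosin, was at 15.3 and 12.3, 28.4 and 19.5, and 6.53 and 7.03 CPM. Of 5 tested satellite cell and myoblast genes, 2 were higher in all 3 muscles (4 with library-size scaling), with medians of 0.20, 0.30 and 0.15. Myod1 was at 136 and 74.6, 66.995 and 33.3, and 51.6 and 46.6 CPM (log2 fold 0.67 ± 0.19, adjusted p = 0.191). Des, the member of highest level, was mixed, at 784 and 961, 773 and 627, and 843 and 897 CPM. Pax7, the defining satellite cell factor, had 24 and 7 counts in DMD-1, 5 and 0 in DMD-2 and 9 and 1 in DMD-3, below the filter.

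Mitochondrial transcripts of the fibres had the opposite sign, without passing the test. All 9 mitochondrially encoded genes tested were lower in rich sections of all 3 muscles (7 of 9 with library-size scaling), beside 17% (2.85%) of all genes. The medians were -0.92, -0.35 and -0.37. mt-Cytb, a subunit of complex III, was at 40243 and 77579 CPM in DMD-1, 45134 and 59390 in DMD-2 and 110297 and 137456 in DMD-3. In unscaled CPM all 16 rich sections of DMD-1 were below every poor section for mt-Cytb, against 4 of 16 in DMD-2 and 1 of 15 in DMD-3. Its log2 fold was -0.55 ± 0.30 (adjusted p = 0.464). Nuclear copies share reads with mitochondrial genes, so these values depend on how shared reads were divided.

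Nuclear genes of oxidative phosphorylation had 10 of 16 members lower in all 3 muscles under TMM and 3 of 16 with library-size scaling, where 2 were higher in all 3. Cox6a2, the muscle form of a cytochrome oxidase subunit, was at 3811 and 7660 CPM in DMD-1, 8269 and 10833 in DMD-2 and 7376 and 9119 in DMD-3 (log2 fold -0.57 ± 0.25, adjusted p = 0.362). Cycs, which encodes cytochrome c, was at 151 and 310, 338 and 462, and 293 and 368 CPM. Csrp3, a Z-disc protein of oxidative fibres, was at 32.0 and 106, 43.3 and 75.1, and 31.1 and 42.5 CPM, with a log2 fold of -1.04 ± 0.21 (adjusted p = 0.0711). It was singled out after its values were seen.

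Contractile and metabolic genes of fast fibres depended on the scaling. Of 13 fast-fibre genes, 7 were lower in all 3 muscles under TMM, but with library-size scaling 2 were lower and 5 higher. Atp2a1, the calcium pump of fast fibres, was at 32245 and 41901, 41832 and 34462, and 66776 and 66475 CPM, a log2 fold of -0.030 ± 0.28 that turned to 0.25 without TMM (edgeR adjusted p = 0.979 and 0.185). Myh2, the myosin of fast oxidative fibres, was at 38.2 and 151 CPM in DMD-1 but 65.0 and 59.9 in DMD-2 and 69.1 and 53.3 in DMD-3. Glycolytic genes had 6 of 14 lower in all 3 muscles under TMM and 6 higher with library-size scaling. In the slow-fibre list 2 of 8 were higher in all 3 muscles (4 with library-size scaling). In the calcium-handling list 3 of 10 were lower under TMM, but with library-size scaling 1 was lower and 6 were higher.

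Transcripts of dystrophin and its homologue utrophin had log2 ratios near 0. Dmd had log2 ratios of -0.070, 0.061 and 0.070 and Utrn -0.088, -0.013 and -0.026. Of the 10 genes tested in this list, 2 were lower in all 3 muscles, and with library-size scaling none was and 6 were higher. Counts over a whole gene do not show which Dmd allele a muscle carried.

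Erythroid genes, which report red blood cells, had lower levels in rich sections, by the most in DMD-1, and none passed. All 5 tested erythroid genes were lower in all 3 muscles (4 with library-size scaling), with medians of -2.72, -0.45 and -0.59. Hba-a1, an alpha-globin gene (chr11:32283511-32284465), was at 544 and 3885 CPM in DMD-1, 1896 and 2596 in DMD-2 and 2648 and 4327 in DMD-3. All 16 rich sections of DMD-1 were below every poor section in unscaled Hba-a1, 7 of 16 were in DMD-2 and none in DMD-3. The log2 fold of Hba-a1 was -1.30 ± 0.34 (adjusted p = 0.166). Haemoglobin genes come in near-identical copies whose reads were divided, and their single values are less certain.

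Endothelial genes had 5 of 9 members lower in all 3 muscles under TMM and none with library-size scaling, where 3 were higher in all 3. Pecam1, the junction protein CD31, was at 50.5 and 92.6 CPM in DMD-1, 91.0 and 93.2 in DMD-2 and 59.95 and 60.3 in DMD-3, and Kdr, a receptor for vascular growth factor, at 112 and 184, 267 and 308, and 163 and 159 CPM. In the pericyte list, Rgs5 was at 95.3 and 109, 89.1 and 104, and 88.8 and 86.4 CPM. Notch3 was the only one of 8 members higher in all 3 under TMM (4 were with library-size scaling), at 15.7 and 9.65, 9.06 and 6.02, and 10.7 and 6.74 CPM (log2 fold 0.67 ± 0.22, adjusted p = 0.258). Schwann cell, adipocyte, immediate early and ribosomal protein lists had no called member, and in 3 of these 4 lists the medians of the 3 muscles differed in sign.

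Adding the sections between poor and rich as 2 more bins shows whether a gene's level moved stepwise with the score. In unscaled CPM over the 4 bins from poor to rich, Col5a1 read 51.0, 67.8, 80.4 and 165 in DMD-1, 72.7, 84.5, 93.9 and 96.1 in DMD-2 and 14.4, 22.1, 27.7 and 31.4 in DMD-3. Myog read 28.5, 33.9, 42.8 and 76.2, then 11.2, 13.9, 16.1 and 28.5, then 1.72, 3.06, 4.65 and 5.07. Both genes were higher in each next bin of all 3 muscles, and mt-Cytb was lower in each next bin. Without TMM the median log2 difference of all genes between rich and poor sections was 0.32. Stepwise order was not counted over all genes. Gpnmb read 49.5, 91.1, 101.5 and 291 in DMD-1, but 55.1, 52.9, 46.8 and 65.0 in DMD-2 and 4.29, 4.03, 4.96 and 8.47 in DMD-3. Hba-a1 was lower at every step in DMD-1 and DMD-2 and uneven in DMD-3 (3169, 2370, 2584 and 2222).

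**Figure D3:**
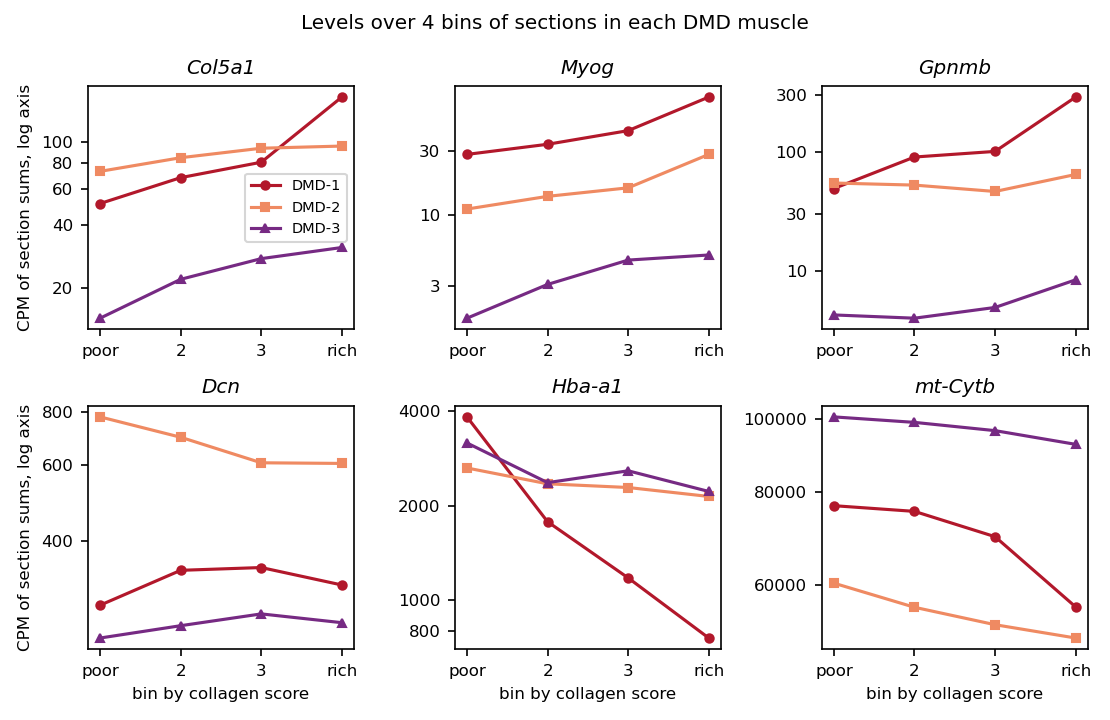
CPM of the summed sections without TMM scaling (y axes, log scale) in 4 bins of sections by collagen score (x axes, poor to rich) for 6 genes, 1 line per DMD muscle. Col5a1 and Myog are higher and mt-Cytb is lower in each next bin of every muscle, while Dcn has no common order.

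Since the rich sections of DMD-1 and DMD-2 lay at the ends, the comparison was repeated on the middle of each muscle, without the first and last 20% of kept sections. Rich and poor sections were chosen anew, 25% each, among the 39, 41 and 36 sections left, and rich sums then had 1.97, 1.52 and 1.59 times the score of poor sums. Only 3 of 9 new rich sections in DMD-1 and 5 of 10 in DMD-2 were rich before, against 9 of 9 in DMD-3. Of the new poor sections, 7 of 9, 10 of 10 and 5 of 9 were poor before. Here 57 of 9419 genes passed (0.605%), 12 higher (0.127%) and 45 lower (0.478%). St8sia2 was tested and did not pass (log2 fold 0.92, edgeR adjusted p = 0.283). Irf7 and Itgb7 were below the filter on low counts and were not tested. The 45 are not all separate signals, because they include nuclear copies with nearly the level and fold of a mitochondrial gene. Gm28661 and mt-Co2 both had a log2 fold of -0.33, and Gm28438 and mt-Nd3 both had -0.35. All 5 tested erythroid genes and all 9 mitochondrially encoded genes fell. Hba-a1 fell by 0.84 ± 0.13 on the log2 scale and mt-Cytb by 0.35 ± 0.054 (edgeR adjusted p = 4.8e-05 for each). In unscaled CPM, mt-Cytb was at 65384 and 75529 in rich and poor sums of DMD-1, 53089 and 61347 in DMD-2 and 92301 and 101308 in DMD-3. Hba-a1 was at 833 and 2643, 2023 and 2669, and 2035 and 2013, so DMD-3 had no lower level before scaling.

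In these middle sections 1 of 7 tendon genes, 1 of 6 fibrillar collagens and 2 of 13 matricellular genes rose. So did 1 of 11 regenerating-fibre genes, beside 0.127% of all genes. None of 14 basement membrane, 15 collagen-processing and 9 protease genes did. Fmod rose by 1.56 ± 0.25 (adjusted p = 0.000105), Fn1 by 0.70 ± 0.14 (adjusted p = 0.00463), Col5a1 by 0.54 ± 0.12 (adjusted p = 0.0126), Sparc by 0.40 ± 0.097 (adjusted p = 0.0263) and Myog by 0.65 ± 0.17 (adjusted p = 0.0439). In unscaled CPM, Fmod was at 16.0 and 3.09, 11.5 and 2.77, and 8.58 and 5.41, Col5a1 at 104 and 56.3, 98.7 and 72.1, and 30.2 and 18.6, and Myog at 53.5 and 32.5, 23.7 and 9.43, and 5.40 and 2.58. Each of the 5 genes was higher in rich sums of all 3 muscles. No macrophage gene passed there, with 13 and 9 tested. Gpnmb was at 120 and 70.7, 48.0 and 51.1, and 8.03 and 4.90. Mbp, a myelin gene of Schwann cells, fell by 0.71 ± 0.15 (adjusted p = 0.00513).

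The number of genes called rested on which muscles were in the fit. Without DMD-2, 655 of 11225 genes passed (5.84%), 575 higher (5.12%) and 80 lower (0.713%), among them all 3 genes called over the 3 muscles. Of the phagocytic macrophage genes 11 of 13 rose in DMD-1 and DMD-3, as did 7 of 9 proliferation genes, 6 of 15 matricellular genes, 4 of 8 fibrillar collagens and 3 of 14 basement membrane genes, and all 5 erythroid genes fell. Gpnmb rose by 1.76 ± 0.26 (adjusted p = 1.32e-08) and Col5a1 by 1.11 ± 0.20 (adjusted p = 5.72e-05) in that fit. Without DMD-1, 7 of 9100 genes passed (0.0769%): Myog and Fmod rose (0.022%), and Hba-a1, Hba-a2, Hbb-bs, mt-Co2 and its nuclear copy Gm28661 fell (0.0549%). Without the tendon-marker-rich sections 2 of 9720 passed (0.0206%), St8sia2 and Fscn1, both higher. Irf7 and Itgb7 were below the filter on low counts in that fit and were not tested. Without DMD-3, 49 of 11044 passed (0.444%), 43 of them higher (0.389%), including Mki67, Ncam1 and Ptprc.

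The same rule was applied to the 4 Ctr and WT muscles, which gave 112 sections, to ask whether the rich-to-poor differences were larger in DMD. Their scores were lower, with medians of 50.2 and 149 CPM in Ctr and 197 and 226 CPM in WT, and the pooled rich-to-poor fold was 2.65 and 2.11 in Ctr and 3.13 and 2.72 in WT. For no gene of 10554 did the DMD effect differ from the mean of the Ctr and WT effects at an adjusted p below 0.05 (0%), by edgeR or by DESeq2, with 850 (8.05%) and 199 at an unadjusted p below 0.05. Leaving out DMD-2 gave 25 (20 with a higher and 5 with a lower effect in DMD).

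Within the WT muscles, 4 genes other than the scoring genes rose in rich sections (0.0379%). In the Ctr muscles edgeR called none (0%), with 278 genes (2.63%) at an unadjusted p below 0.05. The WT genes were Chad and Fmod, both of tendon, Ibsp, a sialoprotein of mineralised tissue, and Mss51, a muscle gene of mitochondrial metabolism. Chad rose by 2.99 ± 0.39 (adjusted p = 0.00227) and Fmod by 2.27 ± 0.40 (adjusted p = 0.0458). Chad was at 47.9 and 3.42 CPM in rich and poor sections of WT-1, 26.2 and 6.07 in WT-2, 1.92 and 0.423 in Ctr-1 and 9.27 and 0.744 in Ctr-2. In the DMD muscles Chad was at 3.81 and 5.98, 14.6 and 6.73, and 4.35 and 7.32 CPM, so DMD-2 alone had the direction of the WT and Ctr muscles. These DMD levels were scaled in the fit of the DMD muscles alone, the WT and Ctr levels in the fit of all muscles. The difference between DMD and the others was -3.13 ± 0.55 for Chad (adjusted p = 0.240).

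The tendon list had medians of 1.96 and 0.91 in the WT muscles, 0.71 and 1.95 in the Ctr muscles and 1.06 in DMD-2, whereas phagocytic macrophage medians were between -0.07 and 0.09 in the 4 muscles. The macrophage list summed to between 611 and 1246 unscaled CPM in all 8 Ctr and WT sums, against 1725 to 11358 in the 6 DMD sums. Basement membrane and type VI collagen genes had medians of -0.20 and 0.17 in WT and -0.13 and 0.03 in Ctr. Col6a2 differed between DMD and the other muscles by 0.72 ± 0.22 (adjusted p = 0.604) and Myog by 1.08 ± 0.93 (adjusted p = 0.789). Irf7 was too low in this fit to be tested. All 9 mitochondrially encoded genes were lower in rich sections of each of the 4 muscles too, with a difference for mt-Cytb of -0.27 ± 0.20 (adjusted p = 0.749).

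**Figure D4:**
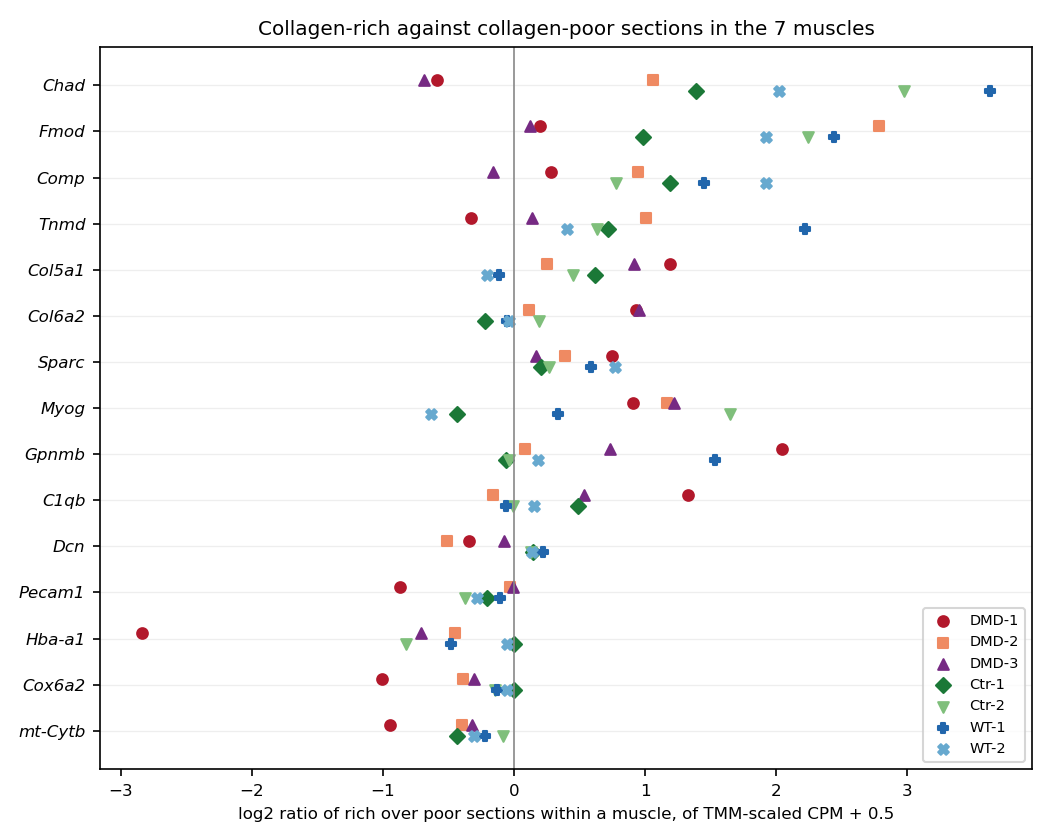
Log2 ratio of rich over poor sections within each muscle (x axis, from TMM-scaled CPM plus 0.5) for 15 genes (rows); circles, squares and triangles mark DMD-1, DMD-2 and DMD-3, and the other symbols the Ctr and WT muscles. Chad lies between 1.39 and 3.63 in the Ctr and WT muscles and at 1.06 in DMD-2 but below 0 in DMD-1 and DMD-3, and Hba-a1 in DMD-1 lies lowest at -2.83.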

How the data were processed

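The authors deposited 1 table per muscle with 1 column per section. Values are expected counts, deposited with multi-mapped and multi-overlapping reads divided into fractions, per the file headers (featureCounts 2.0.1, options -M -O --fraction -s 1). Between 20.1 and 26.1% of nonzero values were not whole. Alignment used STAR 2.7.7a and GRCm38, per the submitters' processing notes. Per the labels' protocols, the RNA was polyA RNA, and read 2 held a molecular identifier and a section barcode. WT tables were counted with another annotation, and the 53083 genes shared by all tables were used.

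Sections with a total of at least 1000 and at least 20% of the muscle's median were kept (30385 to 1100119 counts in DMD). Section counts were summed per muscle over the rich and over the poor sections and rounded to whole numbers first. edgeR 4.0.16 in R 4.3.3 fitted muscle plus richness with filterByExpr, TMM and quasi-likelihood F tests, with Benjamini-Hochberg adjustment over all genes tested and calls below 0.05. The ± is an approximate standard error, taken as |log2 fold| over the root of its F value. The muscle was the replicate, never the section. The second fit took all 14 sums and a richness effect per group. TMM-scaled levels and ratios of the DMD muscles come from the first fit, those of the Ctr and WT muscles from the second. The block rests on both sums coming from the same muscle, and their deviations from the rich and poor means correlated at 0.50, 0.37 and 0.71 in DMD-1, DMD-2 and DMD-3. Ratios per muscle add 0.5 CPM. Per-section and per-bin levels are CPM of the total, without TMM.

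The members and the 35 gene lists (366 entries) were chosen with earlier results of these data known. By rule, genes named were called genes of at least 20 CPM with 1 sign in all 3 muscles (none qualified), and called members of each list or, failing those, its member of highest level. The rule gave 33 genes, not all of which are reported here. Another 15 (Itgb7, St8sia2, Myog, Ncam1, Mymk, Gpnmb, Lyz2, Dcn, Fmod, Fn1, Mki67, Csrp3, Pecam1, Alas2 and Chad), and all further list members given with values, were singled out after values were seen. The tests were tried on simulated data with a dispersion set at 0.02 and the same fold in every DMD muscle. The first recovered 98 of 100 genes changed 2-fold and 100 of 100 changed 4-fold, the second 71 and 100. In the data the log2 ratios of the DMD muscles correlated at only 0.087 to 0.48. These rates therefore do not give the share of real 2-fold changes that the tests would find. Among the unchanged genes 13 were also called in the first, of 10465 genes simulated, and 3 in the second, of 10785. Alternatives were DESeq2 1.42.0, other scalings, filters, scores and shares of sections, thinning, and leaving out muscles, end sections or tendon-marker-rich sections.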

Additional observations from a re-analysis of the deposited data

How the results depend on the processing

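Of the settings tried, scoring by 3 collagens without Postn (3 genes called, all shared with the main 3) and leaving out tendon-marker-rich sections (2, of which 1 was shared) stayed within 1.5 times the main count of 3 genes. The count was 0 with DESeq2, 0 with library-size scaling, 0 with a mean z-score of the 4 genes and 0 with the top and bottom 33%. It was 1 with sections of at least 50% of the median total, 1 with the top and bottom 20%, 12 with sections thinned to one total of 33717 counts, 151 with no filter on low counts and 57 without the end sections. Leaving out 1 DMD muscle gave 7 to 655 calls. Without the replicate block, that is without pairing the sums of a muscle, 0 genes were called in the first comparison (126 at an unadjusted p below 0.05) and 0 in the second (207). For the difference between DMD and the other muscles, main count 0, the count was 1 with WT alone as reference, 15 with no filter on low counts and 0 to 25 when 1 muscle was left out, 1 of them without WT-2 and 1 without DMD-1. It was 0 with Ctr alone, DESeq2, library-size scaling and without tendon-marker-rich sections. Where a count moved, the cause was not tested.

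Of the 48 genes named with a log2 fold, some changed sign in a setting, none with an adjusted p below 0.05 in either. Under library-size scaling, which shifts all genes upward, these were Adamts5 (0.19), Smad3 (0.15), Acta2 (0.21), Des (0.26), Rgs5 (0.16), Car3 (0.0037), Atp2a1 (0.25), Aldoa (0.11), Fbxo32 (0.16), Rplp1 (0.18) and Chad (0.17). With thinned sections they were Adamts5 (0.10), Acta2 (0.065), Des (0.013) and Rplp1 (0.0042). Without tendon-marker-rich sections they were Acta2 (0.043), Thbs4 (-0.011) and Ankrd1 (-0.076). Without the end sections they were Acta2 (0.094), Ankrd1 (-0.16), Des (0.018), Rgs5 (0.056), Chrna1 (-0.16), Atp2a1 (0.046), Fbxo32 (0.083) and Chad (0.58). Ankrd1 also turned with the z-score (-0.087), without the replicate block (-0.060) and with the top and bottom 20% (-0.044), and Chad without the replicate block (0.062) and with the 50% minimum (0.085). Leaving out 1 DMD muscle gave log2 folds of -0.38 to 0.20 for Acta2, -0.16 to 0.034 for Adamts5, -0.28 to 0.0094 for Aldoa, -0.21 to 0.20 for Ankrd1, -0.17 to 0.14 for Atp2a1, -0.67 to 0.23 for Chad, -0.025 to 0.59 for Ctsb, -0.17 to 0.10 for Des, -0.22 to 0.0026 for Fbxo32, -0.057 to 0.93 for Lyz2, -0.20 to 0.067 for Rplp1, -0.19 to 0.29 for Thbs4 and -0.13 to 0.41 for Tpm3. Genes of a few CPM, among them Irf7, Itgb7 and St8sia2, rest on under 20 reads per sum in DMD-2 and DMD-3. Irf7, Itgb7 and St8sia2 fell below the filter without DMD-1, so their differences in DMD-2 and DMD-3 alone were not tested. Irf7 and Itgb7 were also below the filter without the end sections and without tendon-marker-rich sections, and could not be called there.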
